A study of Mus musculus with 7 samples.

Results

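The genes described here are 39 that smooth muscle uses to contract, to anchor its filaments and to receive signals, taken by symbol from a deposited table of 47069 genes. Each of the 39 symbols matched 1 row. The samples are duodenum from 7 male mice aged 8 to 12 weeks, labelled C57BL/6 per sample and C57BL/6J for the series. The T09 group is 3 mice given T09, the synthetic liver X receptor (LXR) agonist T0901317, at 50 mg/kg/day. The Vehicle group is 4 mice given carboxymethylcellulose at 0.5%, a percentage that is not given for the T09 group. The labels give no genetic change in either group, 1 library was made per mouse, and no length of treatment appears in the labels. The study asked what LXR activation does to gene expression in the gut.

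Smooth muscle shortens when calcium, entering through L-type channels or released from stores, leads to the activation of myosin light chain kinase, whose phosphorylation of the regulatory light chain lets myosin pull on actin. Myosin phosphatase and cyclic GMP signalling oppose this. The force is carried by dense bodies, intermediate filaments and membrane adhesion complexes, and in the gut acetylcholine acting on muscarinic receptors is a main trigger. The muscle coats of the duodenum drive mixing and propulsion, while thin strands of muscle also run in the mucosa and the vessel walls.

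The T09 libraries held 20494485, 18592414 and 18040531 counts, and the Vehicle libraries 19007647, 18944222, 15395535 and 18351441. Levels are given as CPM, counts scaled to library size with TMM factors, and changes as log2 fold changes of T09 over Vehicle with their standard error (SE). The defining smooth muscle markers Myh11, Acta2, Actg2, Des and Cnn1 had counts in all 7 libraries, and so did the epithelial markers that dominate a duodenal sample. T09 replicate 1 stood apart in some other tissue markers. Its endothelial markers summed to 40.4 CPM, against 8.50 and 7.99 CPM in the other T09 libraries and 12.3 to 16.0 CPM in the Vehicle libraries.

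With T09, 29 of the 39 genes fell and 10 did not pass the test, by edgeR's quasi-likelihood test with Benjamini-Hochberg adjustment over all 14250 genes tested, at an adjusted p under 0.05. Over all genes tested, 2.87% were called lower and 1.44% higher, and 95.7% were not called. No member was called higher by edgeR, DESeq2 or limma-voom, and none with a fold change above 0 had an unadjusted p under 0.05 by any of these tools. The median log2 fold change of the 39 was -1.94, beside 0.02 over all genes tested. In 30 members every T09 library lay below every Vehicle library, which was so for 9.69% of all genes tested. Together the members summed to 1685 ± 268 CPM with T09 (SD, n = 3) and 3973 ± 650.0 CPM with vehicle (SD, n = 4).

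The count of members called lower lay between 26 and 29 on leaving out any 1 library, whereas the count over all genes was less stable. It was 409 with all libraries, 523 without T09 replicate 1, 199 without T09 replicate 2 and 161 without T09 replicate 3. Without Vehicle replicates 1 to 4 in turn it was 258, 414, 178 and 182. All 39 members passed the filter on low counts, but 7 of them did so through the Vehicle libraries without reaching it in every T09 library, so their passing was tied to the group in which most of them were higher. Of the 32 that reached it in every T09 library, 26 were called lower. In whole tissue, fewer muscle cells and less of these RNAs per muscle cell cannot be told apart.

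**Figure D1:**
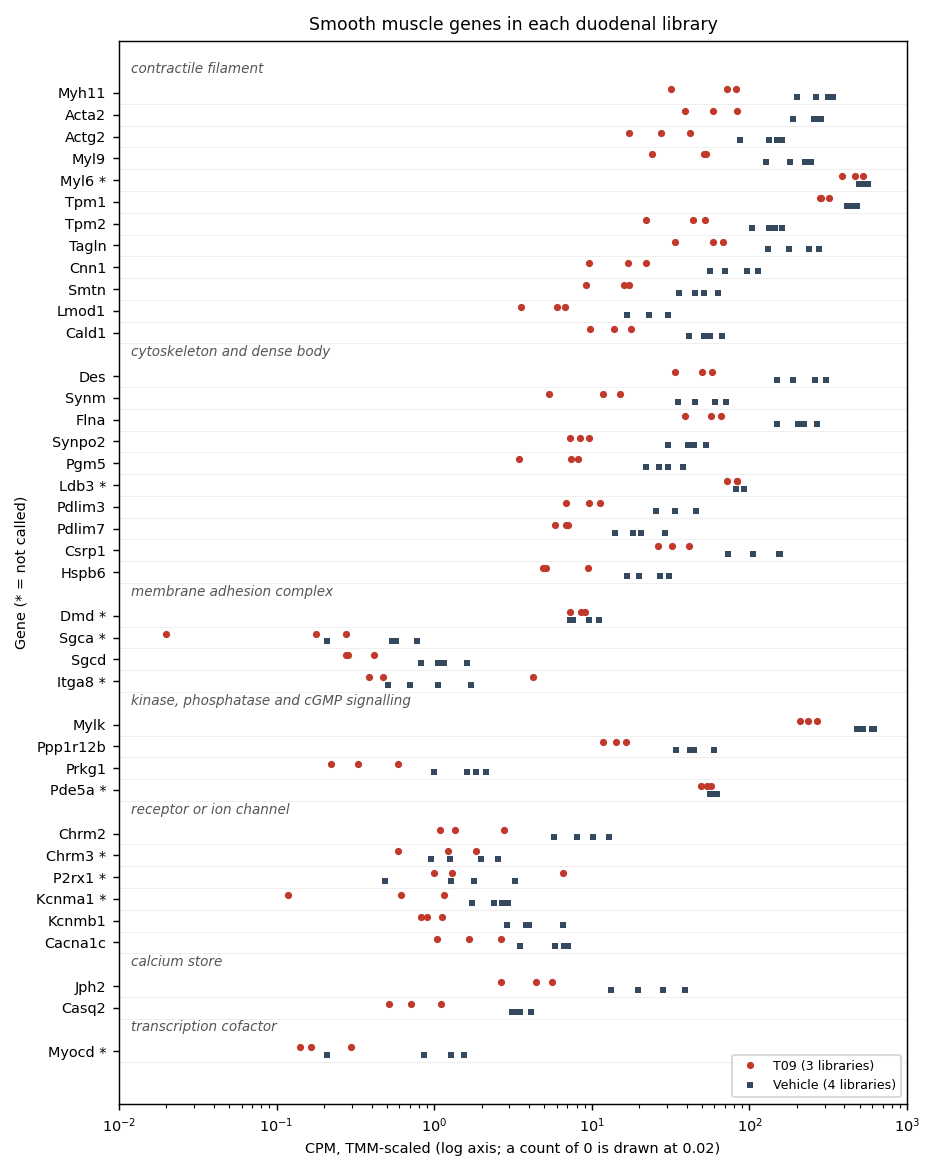
Level of each of the 39 smooth muscle genes in each library, in TMM-scaled CPM on a log axis, grouped by role; red circles are the 3 T09 libraries and dark squares the 4 Vehicle libraries, and an asterisk marks the 10 genes not called. In 30 genes the T09 points lie wholly to the left of the Vehicle points, while those of Myl6, Ldb3, Pde5a and Dmd overlap.

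Of the 12 contractile filament genes, 11 fell, with a median log2 fold change over the 12 of -2.02. Myh11, the smooth muscle myosin heavy chain, had 31.6, 82.1 and 71.6 CPM in the T09 libraries, against 266, 201, 314 and 340.0 CPM in the Vehicle libraries. The T09 libraries all lay far below the Vehicle libraries, and the log2 fold change was -2.18 (SE 0.32, adjusted p by edgeR 0.00674). Acta2, alpha smooth muscle actin, had 38.9, 83.1 and 58.7 CPM in the T09 libraries, against 257, 188, 286 and 279 CPM in the Vehicle libraries. Actg2, the gamma actin typical of visceral muscle, had 17.2, 42.0 and 27.4 CPM in the T09 libraries, against 133, 87.5, 149 and 159.9 CPM in the Vehicle libraries. In both actins the groups were well apart, T09 replicate 1 was the lowest library and Vehicle replicate 2 the lowest of its group, with log2 fold changes of -2.07 (SE 0.25) and -2.20 (SE 0.31).

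Myl9, the regulatory light chain that myosin light chain kinase phosphorylates, had 24.0, 52.7 and 51.7 CPM in the T09 libraries, against 180.1, 127, 226 and 245 CPM in the Vehicle libraries. Myl6, the essential light chain, which non-muscle myosin also uses, had 387, 466 and 527 CPM in the T09 libraries, against 499, 495, 569 and 537 CPM in the Vehicle libraries. These groups overlapped, and Myl6 was not called (log2 fold change -0.19, SE 0.12, adjusted p by edgeR 0.473). Of its transcript's 50-base stretches, 18.5% also occur in another gene, so its count is uncertain. Relative to Myh11, the log2 ratio of Myl6 was higher with T09 by 2.07, and that of Myl9 by 0.04.

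Tropomyosins lie along the actin filament. Tpm1 had 286, 321 and 282 CPM in the T09 libraries, against 449.6, 415, 480.1 and 482 CPM in the Vehicle libraries, so that the groups did not overlap but the fall was small (log2 fold change -0.62, SE 0.10, adjusted p by edgeR 0.0101). Tpm2 had 22.0, 43.7 and 52.0 CPM in the T09 libraries, against 133, 104, 161 and 145 CPM in the Vehicle libraries, a log2 fold change of -1.79 (SE 0.27). Tpm1 is spliced into muscle and cytoplasmic forms, which counts per gene add together.

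The largest fall among the contractile genes was that of Cnn1, which encodes the actin-binding protein calponin 1. It had 9.59, 22.2 and 17.0 CPM in the T09 libraries, against 70.0, 56.1, 114 and 96.3 CPM in the Vehicle libraries, a log2 fold change of -2.37 (SE 0.32, adjusted p by edgeR 0.00525). Tagln, the actin-binding protein transgelin, had 33.5, 68.3 and 59.0 CPM in the T09 libraries, against 178, 130.2, 276 and 240.2 CPM in the Vehicle libraries. Cald1, caldesmon, which restrains myosin on actin, had 9.78, 17.8 and 13.7 CPM in the T09 libraries, against 55.9, 41.1, 51.5 and 66.9 CPM in the Vehicle libraries. In all of these genes the groups were wholly separate, and the log2 fold changes of Tagln and Cald1 were -1.94 (SE 0.30) and -1.97 (SE 0.23). Of the exon bases of Tagln, 62.4% overlap a gene on the other strand that has no row here. Smtn, smoothelin, fell by 1.79 on the log2 scale (SE 0.25), though 16.3% of its exon bases overlap those of an antisense-strand gene and the labels name no strand-specific step. Lmod1, leiomodin 1, which starts actin filaments, had 3.54, 6.02 and 6.75 CPM in the T09 libraries, against 23.0, 16.6, 22.9 and 30.3 CPM in the Vehicle libraries, and fell by 2.10 on the log2 scale (SE 0.27).

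To compare levels between genes, the authors' FPKM, which is per length, was used within each group. Myl6 stood first at 675 FPKM with T09 and 799.9 FPKM with vehicle, while Tpm1 had 202 FPKM with T09 and 322 FPKM with vehicle and Myl9 66.9 FPKM with T09 and 318 FPKM with vehicle. In Vehicle libraries the spread of Tpm1 and Myl9 (SD 23.6 and 86.6, n = 4) does not separate these genes, and with FPKM computed from the listed lengths Myl9, at 175, stood above Tpm1, at 160.2. In Vehicle libraries Des, Actg2 and Acta2 then followed within a narrow span, at 148, 147 and 144 FPKM, which their spread between libraries (SD 46.3, 35.8 and 26.0, n = 4) does not separate. In T09 libraries the order changed: Mylk ranked 4 at 42.8 FPKM, against rank 9 at 103 FPKM in Vehicle libraries, and Ldb3 ranked 10 at 18.2 FPKM, against rank 17 at 20.7 FPKM in Vehicle libraries. The deposited FPKM was 1.00 to 5.16 times the value that the listed gene length gives, the same in every library, so the order between genes rests on the authors' choice of length.

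Serum response factor, with its coactivator myocardin, drives many of these genes through the CArG box, an element of CC, 6 bases of A or T, and GG. Promoter windows of 300 bases, from 250 before to 50 after the start site, were taken from RefSeq on GRCm38.p6 for 35 of the 39 members and searched for the box, whose pattern is the same on both strands. No window was available for Actg2, Myh11 and Tagln, which fell, or for Myocd, which was not called. The box occurred in 4 of 35 members (11.4%), beside 1.81% of 27025 genes. It was in 1 of the 26 that fell, Myl9, and in 3 of the 9 that were not called, Myl6, Ldb3 and Dmd. With up to 1 base departing from the pattern, it occurred in 17 of 35 members (48.6%), beside 23.8% of all genes, in 12 of the 26 that fell and 5 of the 9 that were not called. An LXR element in its strict form, AGGTCA followed by any 4 bases and AGGTCA again, on either strand, was in none of the member windows and in 5 of 32851 windows of all genes. That says only that those letters are not in these windows. The stretches below show such boxes in 3 members that fell, Acta2, Myl9 and Lmod1, and in 3 that were not called, Myl6, Ldb3 and Dmd; capitals mark each box, with at most 1 departing base.
Acta2, chr19:34255383-34255472, minus strand: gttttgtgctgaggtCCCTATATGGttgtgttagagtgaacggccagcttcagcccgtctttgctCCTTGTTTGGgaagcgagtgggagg
Myl9, chr2:156775288-156775389, plus strand: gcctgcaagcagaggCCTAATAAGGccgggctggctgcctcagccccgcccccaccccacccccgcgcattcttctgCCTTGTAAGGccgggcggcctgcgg
Lmod1, chr1:135324609-135324673, plus strand: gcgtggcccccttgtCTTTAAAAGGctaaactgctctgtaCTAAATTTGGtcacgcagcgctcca
Myl6, chr10:128493035-128493074, minus strand: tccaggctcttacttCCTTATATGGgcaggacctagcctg
Ldb3, chr14:34588692-34588731, minus strand: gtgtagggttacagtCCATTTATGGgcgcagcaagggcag
Dmd, chrX:82948731-82948796, plus strand: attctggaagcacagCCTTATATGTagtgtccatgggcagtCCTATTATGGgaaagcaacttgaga
The boxes of Acta2 begin 84 and 34 bases before the start site and each departs from the pattern by 1 base. In Myl9 the full box begins 161 bases before the start site and one with a departing base at 99. The boxes of Lmod1, at 189 and 164, both depart by 1 base. Myl6 has a full box at 50, Ldb3 at 35 or 109 depending on which of its start sites is used, and Dmd at 98 with a departing one at 124. Myl6 and Dmd each also have a window at another start site that holds no full box. A match is a description of the sequence.

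Filaments are held by the cytoskeleton and dense bodies, and of these 10 genes 9 fell (median over the 10, -1.996). Des, desmin, the intermediate filament of muscle, had 33.6, 58.2 and 50.2 CPM in the T09 libraries, against 189, 148, 259 and 306 CPM in the Vehicle libraries. Flna, the actin crosslinker filamin A, had 39.3, 66.4 and 56.8 CPM in the T09 libraries, against 204, 150.1, 222 and 268 CPM in the Vehicle libraries. Csrp1, a LIM protein of actin filaments, had 32.3, 41.1 and 26.2 CPM in the T09 libraries, against 105, 73.1, 155 and 153 CPM in the Vehicle libraries. The T09 libraries were below the Vehicle libraries in all of these genes, with log2 fold changes of -2.25 (SE 0.28), -1.96 (SE 0.23) and -1.87 (SE 0.27).

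Synpo2, an actin-bundling protein of the Z-disc and dense body, had the smallest adjusted p of all 39. It had 7.28, 9.55 and 8.46 CPM in the T09 libraries, against 44.6, 30.6, 40.6 and 52.6 CPM in the Vehicle libraries, a log2 fold change of -2.32 (SE 0.20, adjusted p by edgeR 7.23e-04). Synm, the intermediate filament protein synemin, averaged 10.8 ± 4.98 CPM with T09 (SD, n = 3) and 53.1 ± 15.9 CPM with vehicle (SD, n = 4). Pgm5, a phosphoglucomutase relative found at muscle adhesion sites, averaged 6.30 ± 2.50 CPM with T09 (SD, n = 3) and 29.1 ± 6.58 CPM with vehicle (SD, n = 4). Both fell, with log2 changes of -2.30 (SE 0.35) for Synm and -2.22 (SE 0.30) for Pgm5. Hspb6, a small heat shock protein of muscle, and Pdlim3, a PDZ and LIM protein of the Z-disc, also fell, with log2 changes of -1.86 (SE 0.29) and -2.03 (SE 0.25).

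Pdlim7, another PDZ and LIM protein, had 6.85, 7.07 and 5.86 CPM in the T09 libraries, against 18.2, 14.1, 20.6 and 29.3 CPM in the Vehicle libraries, the smallest called fall of the role (log2 fold change -1.64, SE 0.24). Ldb3, known from the Z-disc of striated muscle, had 72.4, 83.9 and 82.9 CPM in the T09 libraries, against 92.6, 81.6, 82.5 and 92.8 CPM in the Vehicle libraries. Its groups overlapped and it was not called (log2 fold change -0.13, SE 0.10, adjusted p by edgeR 0.534). Relative to Myh11, the log2 ratio of Ldb3 was higher with T09 by 2.13.

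**Figure D2:**
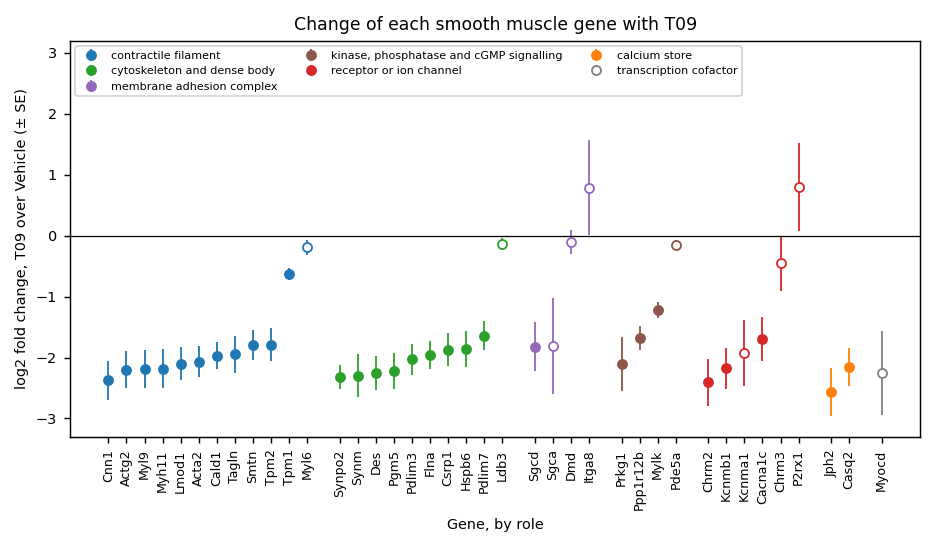
Log2 fold change of T09 over Vehicle with its SE for each gene, ordered within its role and coloured by role; filled points were called lower and open points were not called. Most filled points lie between -2.6 and -1.6, Tpm1 and Mylk lie above them, and the open points of Myl6, Ldb3, Dmd and Pde5a lie near 0.

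In the dystrophin and integrin complexes that tie the filaments to the membrane, 1 of 4 genes passed the test. Dmd, dystrophin, had 8.55, 9.002 and 7.22 CPM in the T09 libraries, against 9.60, 11.1, 7.57 and 7.22 CPM in the Vehicle libraries, with overlapping groups (log2 fold change -0.10, SE 0.19, adjusted p by edgeR 0.834). Without Vehicle replicate 2 its log2 fold change was 0.021. Dmd has several promoters, giving long muscle and short non-muscle forms, and counts per gene add these. Sgcd, delta-sarcoglycan, had only 6, 5 and 7 counts in the T09 libraries, against 16, 20, 18 and 30 counts in the Vehicle libraries. It was called lower (log2 fold change -1.82, SE 0.40, adjusted p by edgeR 0.0358), but not without T09 replicate 1 (adjusted p 0.0719), T09 replicate 2 (0.136), T09 replicate 3 (0.0926), Vehicle replicate 2 (0.0561), Vehicle replicate 3 (0.0848) or Vehicle replicate 4 (0.0885), nor by limma-voom (0.0553).

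Sgca, alpha-sarcoglycan, had 0, 5 and 3 counts in the T09 libraries, against 15, 4, 9 and 10 counts in the Vehicle libraries, at the limit of this depth, and was not called (adjusted p by edgeR 0.272). Itga8, the integrin alpha 8 subunit, had 4.25, 0.387 and 0.473 CPM in the T09 libraries, against 1.71, 1.049, 0.509 and 0.701 CPM in the Vehicle libraries. T09 replicate 1 alone was high, and with all libraries the log2 fold change was 0.79 (SE 0.78, adjusted p by edgeR 0.660). Without it, the value was -1.21 and also not called. That library was also the highest of the T09 group in fibroblast markers, at 117 CPM against 45.2 and 31.7 CPM. Their part in the value of Itga8 was not tested.

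Of the 4 genes for light chain phosphorylation and cyclic GMP signalling, 3 fell. Mylk, myosin light chain kinase, was the most abundant of them, with 210.5, 269 and 235 CPM in the T09 libraries, against 595, 483, 528 and 619 CPM in the Vehicle libraries. The groups were wholly separate and the log2 fold change was -1.22 (SE 0.13, adjusted p by edgeR 0.00206). Ppp1r12b, a targeting subunit of myosin phosphatase, had 11.7, 16.4 and 14.3 CPM in the T09 libraries, against 44.8, 34.3, 42.0 and 59.8 CPM in the Vehicle libraries, a log2 fold change of -1.68 (SE 0.20). Relative to Myh11 the log2 ratios of Mylk and Ppp1r12b were higher with T09 by 1.04 and 0.61, with no overlap between groups in either ratio. A ratio higher in every T09 library was found for 90.9% of the 14249 genes tested other than Myh11, since Myh11 itself fell.

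Cyclic GMP relaxes smooth muscle. Prkg1, its kinase, had 7, 4 and 10 counts in the T09 libraries, against 41, 19, 29 and 30 counts in the Vehicle libraries. It was called lower (log2 fold change -2.10, SE 0.44, adjusted p by edgeR 0.0300), but not without T09 replicate 1 (adjusted p 0.0561), T09 replicate 2 (0.113), Vehicle replicate 1 (0.0741), Vehicle replicate 3 (0.0801) or Vehicle replicate 4 (0.0709). Pde5a, which degrades cyclic GMP, had 49.0, 56.9 and 53.4 CPM in the T09 libraries, against 55.9, 62.1, 58.5 and 59.8 CPM in the Vehicle libraries. Its groups overlapped and it was not called (log2 fold change -0.15, SE 0.09, adjusted p by edgeR 0.428).

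Among the 6 receptors and ion channels, 3 fell, and the median log2 fold change over the 6 was -1.81. Chrm2, the muscarinic M2 receptor, the more abundant muscarinic receptor in gut muscle, had 1.09, 2.76 and 1.36 CPM in the T09 libraries, against 10.2, 5.72, 8.02 and 12.8 CPM in the Vehicle libraries. It fell with a log2 fold change of -2.41 (SE 0.39, adjusted p by edgeR 0.00961), a call lost without T09 replicate 3 (adjusted p 0.0533). Chrm3, the M3 receptor, which triggers contraction through phospholipase C, had 1.84, 1.21 and 0.592 CPM in the T09 libraries, against 1.97, 1.26, 0.955 and 2.53 CPM in the Vehicle libraries. Here the groups overlapped and the gene was not called (log2 fold change -0.45, SE 0.46, adjusted p by edgeR 0.665).

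P2rx1, an ATP-gated cation channel, had 6.52, 0.994 and 1.30 CPM in the T09 libraries, against 3.27, 1.78, 1.27 and 0.485 CPM in the Vehicle libraries. T09 replicate 1 was again the highest of all libraries, and the log2 fold change of 0.79 (SE 0.72) was not called (adjusted p by edgeR 0.627). Without that library it was -0.57 and also not called. The endothelial markers, whose sums are given above, were likewise highest in that library, and their part in the value was not tested.

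The large-conductance calcium-activated potassium channel, which relaxes muscle, was measured through both its subunits. Kcnmb1, the beta 1 subunit, had 0.898, 0.828 and 1.12 CPM in the T09 libraries, against 3.99, 2.89, 3.82 and 6.52 CPM in the Vehicle libraries, and fell with a log2 fold change of -2.18 (SE 0.34, adjusted p by edgeR 0.00837). Kcnma1, the pore, had 13, 21 and 2 counts in the T09 libraries, against 46, 33, 46 and 50 counts in the Vehicle libraries. Its groups did not overlap, yet it did not pass (log2 fold change -1.93, SE 0.54, adjusted p by edgeR 0.0885); T09 replicate 3, at 2 counts, was far below the other T09 libraries. DESeq2 called it (adjusted p 0.00727), and so did edgeR with no filter on low counts (adjusted p 0.0491).

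Cacna1c, the pore of the L-type calcium channel, had 1.04, 2.65 and 1.66 CPM in the T09 libraries, against 5.81, 3.52, 6.68 and 7.06 CPM in the Vehicle libraries. It fell with a log2 fold change of -1.70 (SE 0.37, adjusted p by edgeR 0.0339). The call was lost without T09 replicate 3 (adjusted p 0.132), Vehicle replicate 1 (0.0744), Vehicle replicate 3 (0.0917) or Vehicle replicate 4 (0.0918).

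Both genes of the calcium store fell. Jph2, junctophilin 2, which holds the store close to the plasma membrane, had 2.65, 5.58 and 4.44 CPM in the T09 libraries, against 19.8, 13.2, 28.4 and 38.7 CPM in the Vehicle libraries. Its log2 fold change, -2.57 (SE 0.39, adjusted p by edgeR 0.00804), was the lowest of the 39 with all libraries, but Chrm2 was lower without T09 replicate 2, Myocd, which was not called, without T09 replicate 3, and Cnn1 without Vehicle replicate 4. Casq2, calsequestrin 2, which buffers calcium in the store, had 0.520, 1.10 and 0.710 CPM in the T09 libraries, against 3.11, 3.201, 3.50 and 4.10 CPM in the Vehicle libraries, a log2 fold change of -2.16 (SE 0.32). Myocd, the cofactor myocardin, had 3, 3 and 5 counts in the T09 libraries, against 30, 4, 20 and 16 counts in the Vehicle libraries. It was not called (log2 fold change -2.26, SE 0.69, adjusted p by edgeR 0.114), but was without Vehicle replicate 2, whose 4 counts lay at the level of the T09 libraries (log2 fold change -2.60, adjusted p 0.0255).

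Contractile genes and receptors or channels were then set side by side. Their median log2 fold changes, -2.02 and -1.81, differ by -0.21. That difference was -0.50 without T09 replicate 3 and -0.10 without T09 replicate 2, and, being a median over chosen genes, it was not tested. Summed levels were 1092 ± 192 CPM with T09 (SD, n = 3) and 2393 ± 381 CPM with vehicle (SD, n = 4) for the contractile genes, and 9.26 ± 2.94 CPM with T09 (SD, n = 3) and 25.1 ± 6.46 CPM with vehicle (SD, n = 4) for the receptors and channels. In T09 replicate 1, P2rx1 gave 6.52 of the 12.0 CPM of receptors and channels. Myl6, which was not called, and Tpm1, whose fall was small, gave the most to the contractile sums. Their means were 459.9 and 296 CPM with T09, and 525 and 457 CPM with vehicle. The summed levels and the ratio that follows therefore lean on these genes. Per 1000 counts of contractile genes, receptors and channels had 13.8, 7.87 and 5.20 counts in the T09 libraries, against 12.1, 8.90, 8.77 and 12.0 counts in the Vehicle libraries, so that the groups overlapped.

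Each receptor or channel was also expressed relative to Myh11 in the same library, as log2 of the ratio of counts with 0.5 added to each, so that library size cancels. The 6 differences between groups were tested by an exact permutation test over the 35 splits, two-sided, with Benjamini-Hochberg adjustment over the 6; the smallest p this design allows is 0.0286. For Chrm2 the ratio was -4.83, -4.88 and -5.69 in the T09 libraries, against -4.70, -5.13, -5.28 and -4.73 in the Vehicle libraries. The groups overlapped, with a difference of -0.17 (exact p = 0.571, adjusted 0.857). For Cacna1c the ratio was -4.90, -4.94 and -5.41 in the T09 libraries, against -5.51, -5.83, -5.55 and -5.58 in the Vehicle libraries. Here the T09 libraries were all above the Vehicle libraries, by 0.54 on average (exact p = 0.0286, adjusted 0.0857), which did not pass after adjustment. Such a separation was found for 90.9% of the 14249 genes tested other than Myh11, since Myh11 itself fell.

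The ratio of Chrm3 was higher with T09 by 1.77 (exact p = 0.0286, adjusted 0.0857), again with no overlap, as for 90.9% of the genes tested. Without T09 replicate 1 the ratio was higher by 0.98. That of P2rx1 was higher by 2.82 (exact p = 0.0571, adjusted 0.114), and by 1.57 without T09 replicate 1. Kcnmb1 and Kcnma1 had differences of 0.17 (exact p = 0.714, adjusted 0.857) and -0.06 (exact p = 0.914, adjusted 0.914), with overlapping groups. The ratio of Kcnma1 was -0.69 without T09 replicate 1 and 0.96 without T09 replicate 3, and that of Kcnmb1 was -0.22 without T09 replicate 1 and 0.52 without T09 replicate 2. None of the 6 passed after adjustment, and with so few libraries that does not show that these genes changed in step with Myh11.

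The same ratio to Myh11 was then taken for all 38 other members. In 25 of them the groups differed by at most 0.5 on the log2 scale, either way. The share of all genes within that span was not counted. Pgm5, Actg2, Synpo2, Des and Myl9 lay closest to Myh11, at -0.00, 0.01, -0.03, 0.03 and 0.04. In 13 members every T09 library had a higher ratio than every Vehicle library, which was so for 90.9% of the 14249 genes tested other than Myh11, since Myh11 itself fell. In none of the 38 was the ratio lower throughout, as it was for 0.0842% of all genes. Dmd, Ldb3, Pde5a, Myl6 and Tpm1 were among the 13, at 2.18, 2.13, 2.11, 2.07 and 1.64. For 12 of the 38 the exact permutation p was 0.0286, the smallest possible, and after adjustment over the 38 it was 0.0905, which did not pass.

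**Figure D3:**
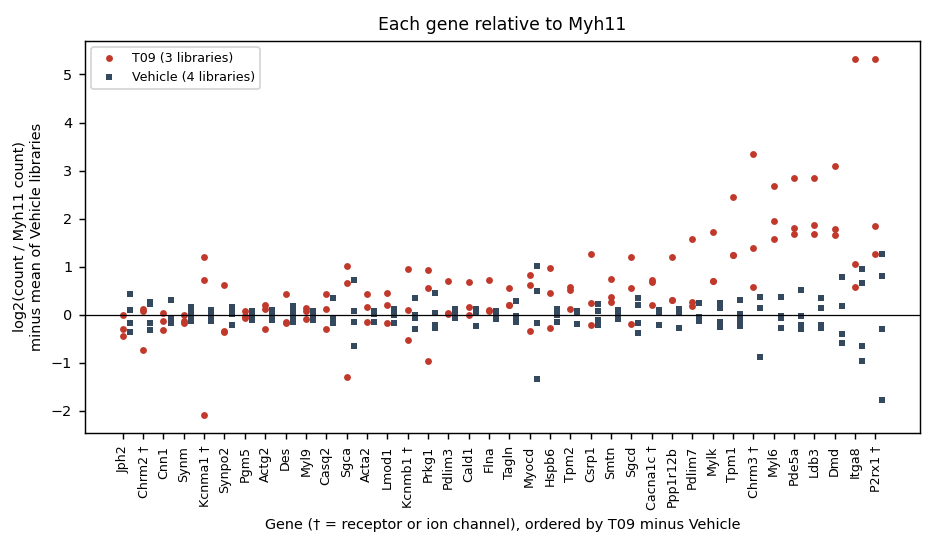
Log2 ratio of each gene's count to that of Myh11, minus the mean of the Vehicle libraries, for 38 genes ordered by the difference between groups; red circles are T09 libraries, dark squares Vehicle libraries, and a dagger marks receptors and channels. Most genes stay near 0 in both groups, and from Mylk rightwards every T09 point stands above every Vehicle point, except in Itga8, whose groups overlap, while P2rx1 is separate by a hair.

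Within each group the members tended to share an order of libraries. How many of all genes share it was not counted, so it is not shown to be particular to the members. Among the T09 libraries, replicate 1 was the lowest in 27 of 39 members and in 11 of the 12 contractile genes, and replicate 2 the highest in 29 members. The median deviation of contractile genes from their T09 mean was -0.58, 0.39 and 0.20 on the log2 scale in replicates 1 to 3. Among the Vehicle libraries, replicate 2 was the lowest in 32 of 39 members and in all 12 contractile genes, and replicate 4 the highest in 24 members. The contractile deviations there were -0.03, -0.43, 0.19 and 0.29 in replicates 1 to 4.

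Receptors and channels followed this in part. In Vehicle replicate 2 the median deviation was -0.41 and 4 of the 6 were at their lowest, and in Vehicle replicate 4 it was 0.41 with 4 of the 6 at their highest. In the T09 group their median deviations were 0.02, 0.30 and -0.38 in replicates 1 to 3, while each replicate was the lowest in 2 of the 6. Replicate 1, with the lowest median for contractile genes, thus did not have the lowest median for these. With 3 and 4 libraries no correlation across libraries was computed. The range between the lowest and highest library of a group had a median over members of 1.78-fold with T09 and 1.79-fold with vehicle. It was 2.07-fold and 1.73-fold over contractile genes, and 2.10-fold and 2.08-fold over receptors and channels. These ranges cover 3 T09 and 4 Vehicle libraries, and a range tends to widen with more libraries. The spread of the groups was therefore not compared. A small constant was added to each CPM first, which narrows the range of scarce genes. Kcnma1, at 0.118 to 1.16 CPM with T09, thus counted as 2.68-fold.

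Genes that work beside the members, but are not among them, fell in part. Of 15 tested genes of the RhoA and myosin phosphatase pathway 2 fell, namely Ppp1r14a, the phosphatase inhibitor CPI-17 (log2 fold change -1.98, SE 0.35), and Arhgef25, a RhoA exchange factor (-1.57, SE 0.31). The median of this list was -0.11. Of 18 tested genes of calcium entry, calcium stores and cyclic GMP, 8 fell, with a median of -1.28. They included Abcc9, a regulatory subunit of ATP-sensitive potassium channels (-2.09, SE 0.38), the ryanodine receptor Ryr2 (-2.07, SE 0.36) and the calcium channel subunit Cacnb2 (-2.06, SE 0.45). Ryr2 and Cacnb2 reached the filter on low counts in 1 of 3 T09 libraries and in all 4 Vehicle libraries, so they passed through the group where they were higher. The calcium pump Atp2a2 was not called (log2 fold change -0.25, SE 0.10).

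Of 19 tested genes of integrin, sarcoglycan and caveola complexes, 7 fell, with a median of -0.66. The largest falls were those of Lims2 (-2.08, SE 0.32), Tns1, which encodes tensin 1 (-1.91, SE 0.19), and Cavin1, a coat protein of caveolae (-1.77, SE 0.26). Dag1, dystroglycan, the partner of dystrophin, was not called (log2 fold change -0.01, SE 0.11). Of 10 transcription factors and cofactors of smooth muscle 3 fell, Hand2 (-2.41, SE 0.52), Hand1 (-1.60, SE 0.35) and Tead1 (-0.82, SE 0.19), with a median of -0.65. Srf, myocardin's partner, averaged 41.9 ± 4.70 CPM with T09 (SD, n = 3) and 60.0 ± 12.6 CPM with vehicle (SD, n = 4) and was not called (log2 fold change -0.52, SE 0.17, adjusted p by edgeR 0.133), nor was Gata6, the most abundant of the list (-0.28, SE 0.11). None of these lists held a gene called higher by edgeR, DESeq2 or limma-voom. At an unadjusted p under 0.05, edgeR and limma-voom each placed 1 gene higher, in the list of transcription factors; with edgeR it was Mrtfb, a myocardin relative (log2 fold change 0.26, SE 0.11), picked out after its value was seen.

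Markers of other cells of the gut wall were measured beside the members. All 8 enteric neuron markers had every T09 library below every Vehicle library, 6 of them were called lower, of which 2 passed the filter on low counts through the Vehicle libraries, and they summed to 7.42 to 7.95 CPM in the T09 libraries and 18.7 to 35.7 CPM in the Vehicle libraries. In the pericyte and vascular muscle list 1 of 5 tested markers was called by edgeR and 2 by DESeq2. The one called by edgeR was Rgs5, with 14.9, 29.0 and 31.0 CPM in the T09 libraries, against 114, 93.2, 116 and 135 CPM in the Vehicle libraries, while Pdgfrb had a log2 fold change of 0.63 (SE 0.60). That list summed to 30.5 to 37.4 CPM in the T09 libraries and 102 to 153 CPM in the Vehicle libraries. Rgs5 gave most of it, except in T09 replicate 1, and 3 of the 5 tested markers had a log2 fold change below 0. Fibroblast markers summed to 31.7 to 117 CPM in the T09 libraries and 88.4 to 151 CPM in the Vehicle libraries, with 1 of 7 called lower by edgeR and 2 by DESeq2.

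Endothelial markers summed to 7.99 to 40.4 CPM in the T09 libraries and 12.3 to 16.0 CPM in the Vehicle libraries, and none of 6 was called by edgeR, DESeq2 or limma-voom. At an unadjusted p under 0.05, DESeq2 placed 1 of them higher, and edgeR and limma-voom none. Epithelial markers summed to 9637 to 10378 CPM in the T09 libraries and 11722 to 13029 CPM in the Vehicle libraries, lower in every T09 library by a small margin. None of the 7 was called by edgeR or limma-voom, with 5 lower at an unadjusted p under 0.05 by each, and DESeq2 called 2 lower. Skeletal muscle markers summed to 2.31 to 3.97 CPM in the T09 libraries and 6.56 to 12.2 CPM in the Vehicle libraries, with Myh1 and Myh4 at 0 in every library and 1 of 2 tested markers, Ckm, called lower by edgeR, while DESeq2 called both.

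The outermost coat of the wall and attached fat also differed between libraries. Upk3b, a mesothelial marker, had 0.378, 0.166 and 0.296 CPM in the T09 libraries, against 5.50, 0.367, 0.382 and 12.4 CPM in the Vehicle libraries. Its level was high in Vehicle replicates 1 and 4 alone. Adipoq, the fat cell hormone adiponectin, had 0.00, 0.00 and 0.473 CPM in the T09 libraries, against 0.207, 0.787, 1.97 and 25.8 CPM in the Vehicle libraries, and Plin1, a coat protein of fat droplets, had 0.0472, 0.00 and 0.118 CPM in the T09 libraries, against 0.311, 0.787, 2.16 and 24.7 CPM in the Vehicle libraries. Vehicle replicate 4, the highest library for 24 of the 39 members, was far above all others in both fat genes. Mesothelial markers summed to 3.67 to 6.14 CPM in the T09 libraries and 2.99 to 26.2 CPM in the Vehicle libraries, with Wt1 at 0 in all T09 libraries and 1 of 5, Upk1b, tested and not called by edgeR. DESeq2 called 2 of the 5 lower. Adipocyte markers summed to 109.7 to 143 CPM in the T09 libraries and 154 to 261 CPM in the Vehicle libraries, nearly all of it Cidec, which gut epithelium also expresses, with Lep at 0 in all T09 libraries. None of the 3 tested was called by edgeR, with 3 lower at an unadjusted p under 0.05, or by limma-voom, with 2 lower at that p, while DESeq2 called 1 lower. Without Vehicle replicate 4, 26 of the 37 members tested were called lower, while Vehicle replicate 1, also high in Upk3b, stayed in. The part of any of these cells in the lower smooth muscle values was not tested.

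**Figure D4:**
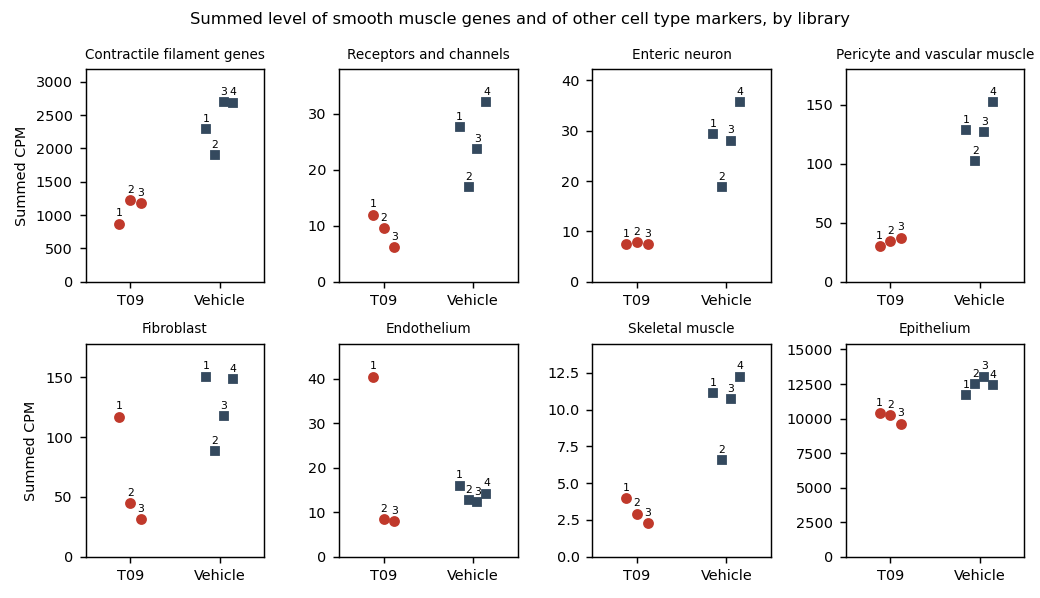
Summed CPM in each library of the contractile filament genes, of the receptors and channels, and of markers of other cell types, with T09 as red circles and Vehicle as dark squares, numbered by replicate. The sums of contractile genes, receptors and channels, and enteric neuron, pericyte, skeletal muscle and epithelial markers are separate between groups. The endothelial and fibroblast sums overlap, and those of T09 replicate 1 stand above those of the other T09 libraries.

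The members lie on 15 chromosomes. The labels name no genome build for these coordinates, and GRCm38 was inferred from their overlap with GENCODE M21, given at the end of this paragraph. Myh11 (ENSMUSG00000018830) is on chromosome 16, 14194527 to 14291408, Synpo2 (ENSMUSG00000050315) on chromosome 3, 123076519 to 123236149, Jph2 (ENSMUSG00000017817) on chromosome 2, 163336242 to 163397993, and Chrm2 (ENSMUSG00000045613) on chromosome 6, 36388084 to 36528414. All 39 rows overlap their gene in GENCODE M21, and 28 have exactly its start and end.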

How the data were processed

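Per the labels' protocols, polyadenylated RNA was selected and libraries were made with random primers. The authors deposited read counts per Ensembl gene and FPKM for each library, per the file headers. Tools named in the submitters' processing notes, with no role given, are DESeq 1.18.0, HTSeq 0.6.1, Bowtie2 2.2.3 and TopHat2 2.0.12; the labels give no genome build and no strand setting. Totals were between 15395535 and 20494485 counts per library, and columns were matched to libraries by title. Counts were tested with edgeR 4.0.16 in R 4.3.3 (filterByExpr, TMM, glmQLFit and glmQLFTest, Benjamini-Hochberg over 14250 genes, call at an adjusted p under 0.05); the SE is the log2 fold change over the square root of F. Alternatives were DESeq2 1.42.0, limma-voom (limma 3.58.1), 3 scalings, 2 filters (none, or 1 CPM reached in 3 or more libraries), a block for the replicate number, and each library left out. Ratios to Myh11 were tested in Python 3.11.15 with SciPy 1.17.1, on the absolute difference between group means, with a pseudocount of 3 and Acta2 as the divisor as alternatives. That two-sided form replaced one that doubles the tail, after the p-values had been seen. No ratio passed after adjustment in the form used. With the doubled tail none could have passed, as its smallest p is 0.0571.

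The members, their roles and the 15 lists of other genes were chosen with earlier results of these data known, and a direction already known is no independent support. Values per library are printed for all members of roles with 6 or fewer genes. In larger roles they are printed for the most abundant, the largest and smallest changes and those not called, with further genes added after their values were seen; 1 gene of another list that the rule names is not reported here. The ratios of members other than receptors and channels, their background over all genes, and the CArG search with a departing base, run once the full box had been counted, were also added then. Labels do not say whether the mice shared a cage or day. No 2 libraries of a group agreed within sampling noise.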

Additional observations from a re-analysis of the deposited data

How the results depend on the processing

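Of the 29 members called lower, 24 were called under all 15 alternatives and all 29 kept a log2 fold change below 0 in them. The members called lower numbered 28 with limma-voom, 30 with DESeq2 and 26 to 29 when each library was left out, and those called higher 0 throughout; 37 of the 39 passed the filter without Vehicle replicate 1, 3 or 4 and with the CPM filter. Over all genes, 409 lower and 205 higher became 731 and 368 with DESeq2, and 161 to 523 and 90 to 296 when each library was left out. The contractile minus receptor and channel difference in medians, -0.21, ran from -0.50 to -0.10 without each library. The ratio to Myh11 ran from -0.32 to 0.10 for Chrm2, -0.69 to 0.96 for Kcnma1 and -0.22 to 0.52 for Kcnmb1 when each library was left out, and that of Kcnma1 was 0.33 with a pseudocount of 3. Log2 fold changes that changed sign with a library left out were those of Dmd (-0.19 to 0.021), Itga8 (-1.21 to 1.25) and P2rx1 (-0.57 to 1.33). The cause was not tested.

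With the replicate number as a block, 24 members, 177 genes lower and 113 higher were called; the calls of Tpm1 (adjusted p 0.0608), Chrm2 (0.0522), Cacna1c (0.127), Prkg1 (0.0634) and Sgcd (0.131) were lost. The numbers do not pair the mice by the labels: deviations of same-numbered libraries correlated at 0.256, 0.030 and -0.027 across genes, and T09 replicates 2 and 3 both correlated best with Vehicle replicate 4. Without a T09 library the smallest permutation p is 0.0667, and without a Vehicle library 0.1. Depth limits Sgca, Sgcd, Prkg1 and Myocd, with at most 41 counts in any library.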

Other observations

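Pacemaker cells and glia also lie in the muscle coats. Markers of interstitial cells of Cajal, the pacemakers of gut muscle, summed to 5.98 to 9.45 CPM in the T09 libraries and 13.4 to 20.9 CPM in the Vehicle libraries, with 1 of 5 called lower by edgeR and by limma-voom and 4 by DESeq2, and 4 lower at an unadjusted p under 0.05 by each tool. The one called by edgeR was Thbs4, which reached the filter on low counts in no T09 library. Kit, their receptor tyrosine kinase, had 5.15, 4.92 and 3.49 CPM in the T09 libraries, against 7.83, 7.29, 8.21 and 7.06 CPM in the Vehicle libraries and was not called by edgeR (log2 fold change -0.75, SE 0.19, adjusted p by edgeR 0.0637). Ano1, their calcium-activated chloride channel, had 2.41, 1.66 and 1.60 CPM in the T09 libraries, against 6.07, 3.57, 3.25 and 8.999 CPM in the Vehicle libraries and was not called by edgeR either (log2 fold change -1.53, SE 0.39, adjusted p by edgeR 0.0633). In both genes every T09 library lay below every Vehicle library.

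Enteric glia markers summed to 308 to 426 CPM in the T09 libraries and 413 to 562 CPM in the Vehicle libraries, most of it Erbb3, which epithelium also expresses. None of 4 was called by edgeR, with 2 lower at an unadjusted p under 0.05, and limma-voom called none, with 3 lower at that p, while DESeq2 called 1 of 5. Cardiac muscle markers summed to 1.42 to 2.66 CPM in the T09 libraries and 3.31 to 11.5 CPM in the Vehicle libraries, with Tnnt2 alone tested, called lower by edgeR and DESeq2 but not by limma-voom (log2 fold change -2.20, SE 0.46, adjusted p by edgeR 0.0300).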
